A study of Drosophila melanogaster with 8 samples.

Results

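The transcriptome described here is that of wild-type (WT) macrophages (hemocytes, the blood cells of the fly) that were isolated by fluorescence-activated sorting out of embryos of Drosophila melanogaster. It rests on the 4 libraries whose titles place them in the WT group, out of 8 in the series, and on all 17494 genes of their tables. The study set these cells against macrophages of a mutant in CG9005, which is not compared here. Embryos were collected at stage 11 and 29 °C, and the labels give one genotype text for all libraries, a triple mCherry tag in macrophages. The promoter that drives the tag, the number of embryos and the sex of the embryos were not found in the labels. A stage field in the labels counts 11, 12, 13 and 14 over WT replicates 1 to 4, while the growth protocol gives stage 11 throughout. Nothing says that the libraries came from separate collections, so the spread between them may be technical.

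Embryonic macrophages arise in the head mesoderm under the GATA factor Serpent, spread through the embryo, engulf dying cells and lay down basement membrane. They recognise apoptotic cells through receptors of the Nimrod, CD36 and Draper families. Their matrix consists of collagen IV, laminins, Perlecan, Nidogen and enzymes that modify or crosslink them.

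Levels are given in TPM, a transcript abundance corrected for gene length, in which each library sums to 1000000. The libraries held 15782570 to 18942786 reads assigned to genes with a known exon length, recovered from the TPM values. They held 7578 to 8177 genes at 1 TPM or more. An average of at least 1 TPM was reached by 8096 genes, and 6491 genes reached it in each of the 4 libraries. At the other end, 5479 genes were listed at 0 in all 4. Genes with general cell functions were among them. Prosalpha1 (a proteasome subunit), ND-MNLL (a subunit of respiratory complex I) and Tim13 (mitochondrial protein import) were listed at 0 in each library. So were mRpL53 (a mitochondrial ribosomal protein) and Prx5 (a peroxiredoxin). These genes were chosen after their values were seen. Exons of other genes covered 100% of the exon bases of ND-MNLL, Prx5 and mRpL53, 1.75% of Prosalpha1 and none of Tim13. Among protein-coding genes with at least 90% of their exon bases shared, 400 of 505 (79.2%) were listed at 0, against 2574 of 9105 (28.3%) of those with no shared base. The mitochondrial genome's 37 genes all had a value of 0.

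Among the 4 libraries, replicates 1, 3 and 4 each stood apart in ways that touch groups below. Replicate 4 had its highest values in 22 of 42 ER and secretion genes and 40 of 71 mitochondrial ribosomal protein genes at 10 TPM or more. Of the 4397 genes at 10 TPM or more, 11.7% had their highest value in replicate 1, 23.2% in replicate 2, 31.4% in replicate 3 and 33.7% in replicate 4. Replicate 3 was high for long genes. Protein-coding genes at 10 TPM or more were split by exon length into 5 bins of equal size. In the bin of the longest genes (exon length 3823 to 24895 bases), 68.1% had their highest value in replicate 3, against 16.2% in the bin of the shortest (223 to 1032 bases). Its median deviation from the gene mean was 0.33 in the bin of the longest and -0.09 in the shortest, on the log2(TPM + 1) scale. The part of this length pattern in any group below was not tested.

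**Figure D1:**
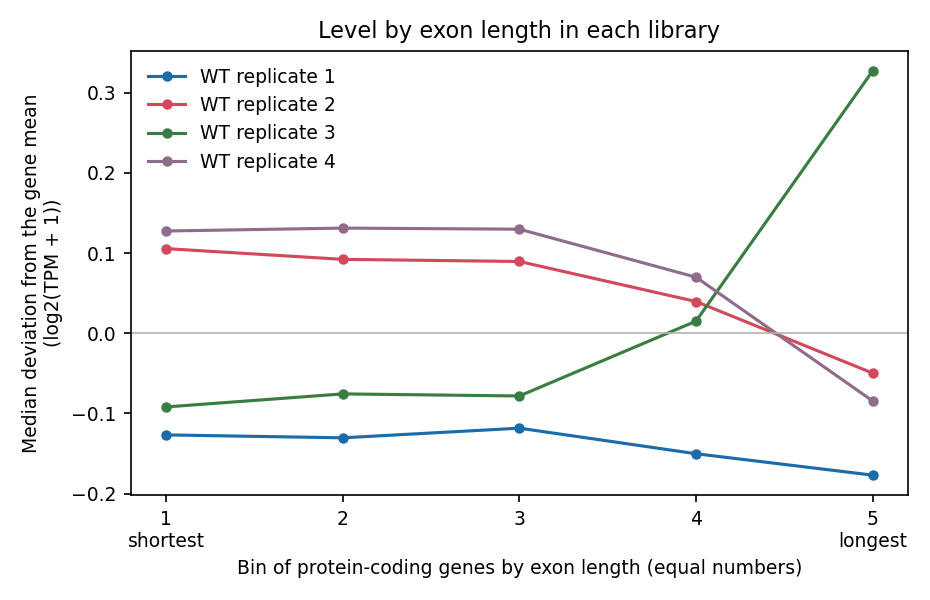
Median deviation of each WT library from the gene mean on the log2(TPM + 1) scale (y) in 5 equal bins of protein-coding genes by exon length (x). Replicate 3 rises to 0.33 in the bin of the longest genes, where the other 3 libraries lie at or below -0.05.

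The labelled cell type was checked with 6 macrophage markers, and each was present in each library. NimC4 (also known as Simu, a Nimrod receptor that tethers apoptotic cells; chromosome 2L, 14047582 to 14048863, plus strand) had 3603, 6447, 7492 and 6046 TPM in replicates 1 to 4. It averaged 5897 ± 1646 TPM (SD, n = 4), rank 33 of all genes and rank 4 outside the cytosolic ribosomal proteins. Replicate 1 was the lowest and lay well below the other 3. In sorted bulk cells, fewer cells of a type and less RNA per cell cannot be told apart.

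The CD36-family engulfment receptor croquemort, crq (chromosome 2L, 448254 to 453024, minus strand), had 314, 453, 510 and 584 TPM, again lowest in replicate 1. The scavenger receptor Sr-CI (chromosome 2L, 4121702 to 4124153, plus strand) had 390, 423, 386 and 376 TPM. Its CV over the libraries was 5.26%, so it was the steadiest of the 6 markers. Peroxidasin, Pxn, a secreted enzyme that crosslinks collagen IV (chromosome 3L, 2601455 to 2630064, minus strand), had 155, 127, 105 and 158 TPM. The collagen IV chain viking, vkg (chromosome 2L, 5012144 to 5028191, minus strand), had 129, 48.4, 47.2 and 56.2 TPM. Here replicate 1 stood far above the other 3.

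The lineage factor serpent, srp (chromosome 3R, 15986152 to 16004085, plus strand), was the lowest marker, with 15.0, 30.9, 35.5 and 38.6 TPM and rank 2386. Replicate 1 again lay lowest. Coordinates are those of the Ensembl annotation of BDGP6. On ranks, the markers sat beside genes of quite different kinds. NimC4 fell between RpS30 (6023 TPM) and RpL7A (5772 TPM), crq between egh (468 TPM) and Non1 (464 TPM), and srp between Gmer and Rpn12, a proteasome subunit.

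Of the full list of 21 macrophage markers, 18 (85.7%) averaged at least 1 TPM, against 46.3% of all genes. The figure for all genes, here and below, includes noncoding genes. Among protein-coding genes alone the share was larger, with 7378 of 13921 at 1 TPM or more. An average of at least 100 TPM was reached by 10 markers. The 3 below 1 TPM or at 0 were Hml (hemolectin), NimC1 and eater, which mark later plasmatocytes and are known mainly from larvae. Hml had 0.0234 and 0.118 TPM in replicates 1 and 3 and was listed at 0 in replicates 2 and 4. NimC1 was above 0 only in replicate 1, at 0.0209 TPM, and eater was listed at 0 in each library. Hemese, He, reached 6.11 TPM in replicate 4 and was listed at 0 in the other 3, so it counted among the 18 through that library alone.

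**Figure D2:**
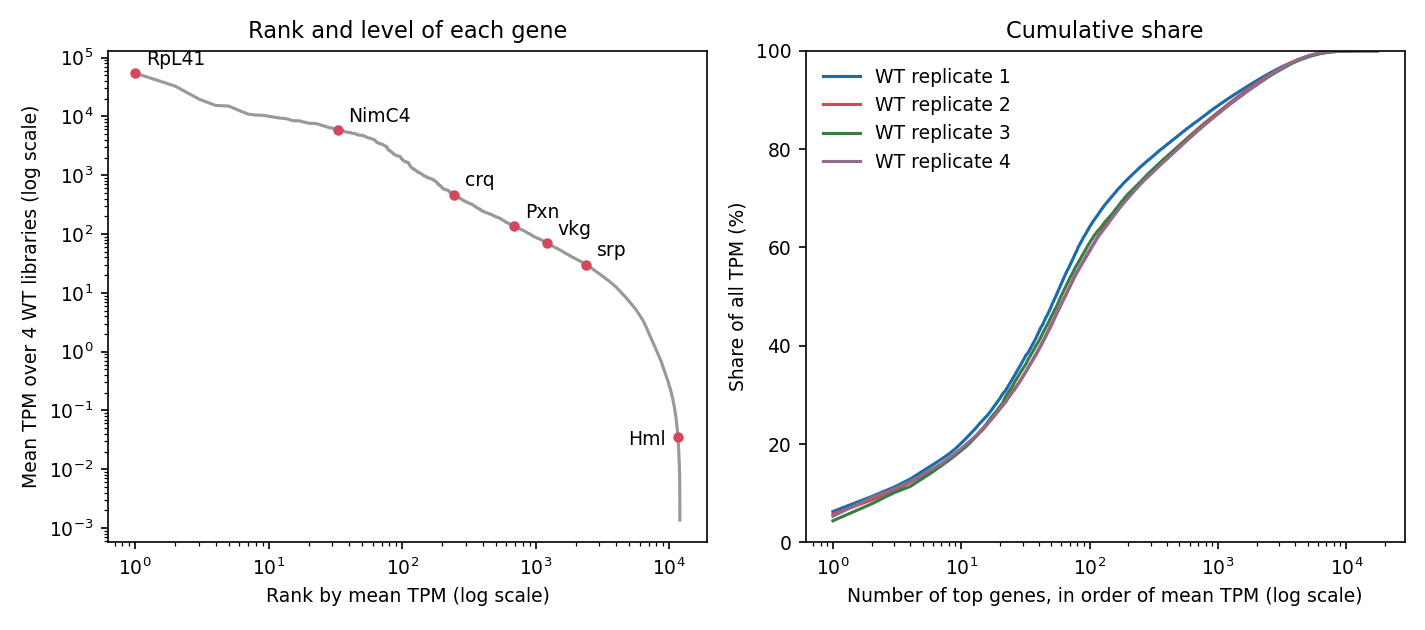
Left, mean TPM of each gene above 0 against its rank, both on log scales, with 7 genes marked. Right, cumulative share of all TPM (%) against the number of top genes (log scale), 1 line per WT library. The first 100 genes hold 61.0% of all TPM on average, and Hml sits near the end of the curve while NimC4 sits at rank 33.

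A small set of genes held most of the messages. The 10 top genes held 19.2 ± 0.683% of all TPM, the top 100 held 61.0 ± 2.26% and the top 1000 held 87.7 ± 0.778% (SD, n = 4). The first 61 genes sufficed for 50%. At the top, 90 genes were in the top 100 of all 4 libraries and 111 in that of any. In classes of level, 144 genes averaged 1000 TPM or more and held 66.8 ± 2.08% of all TPM. A further 762 genes lay between 100 and 1000 TPM and held 19.96%. The 3491 genes between 10 and 100 TPM held 11.5%, and the 3699 between 1 and 10 TPM held 1.55%.

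Cytosolic ribosomal proteins, the protein part of the translating ribosome, dominated this top. They took 9 of the top 10 places, 27 of the top 30 and 75 of the top 100. Their 88 genes held 54.4, 48.3, 49.6 and 48.3% of all TPM in replicates 1 to 4. The share was 50.2 ± 2.89%, highest in replicate 1. In that library 52 (61.2%) of the 85 ribosomal protein genes at 10 TPM or more had their highest value, against 11.7% of all genes at that level. The median ribosomal protein gene stood at 4770 TPM, against 12.2 TPM for the median of all genes at 1 TPM or more. RpL41 (chromosome 2R, 24903416 to 24903935, minus strand) was the top gene with 62913, 57845, 44096 and 53498 TPM. RpL23 followed within the family at 19732 ± 2167 TPM, RpL39 at 15394 ± 2053 TPM and RpL27A at 15017 ± 1379 TPM (SD, n = 4). The family's single member at 0 was RpL10Aa. RpL41 was 2.77-fold above RpL23 on average, and higher in all 4 libraries. The family dropped to 29.5% as a share of reads, which is not corrected for gene length.

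Where a ribosomal protein has a pair of genes, 1 copy usually carried most of the message. RpS19a was at 3676 TPM against 4.59 TPM for RpS19b, and RpS28b at 4761 TPM against 2.49 TPM for RpS28a, which averaged 1.29 TPM without replicate 4. RpS10b exceeded RpS10a 53.5-fold and RpL37a exceeded RpL37b 84.7-fold. The pair RpS5b and RpS5a was closer, at 2587 and 953 TPM, and RpL34b and RpL34a stood at 1711 and 802 TPM. RpS14a and RpS14b, adjacent near-identical copies, stood at 6372 and 1053 TPM. Their ratio of 5.73 to 6.27 over the libraries is uncertain, since reads may be shared between the copies.

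**Figure D3:**
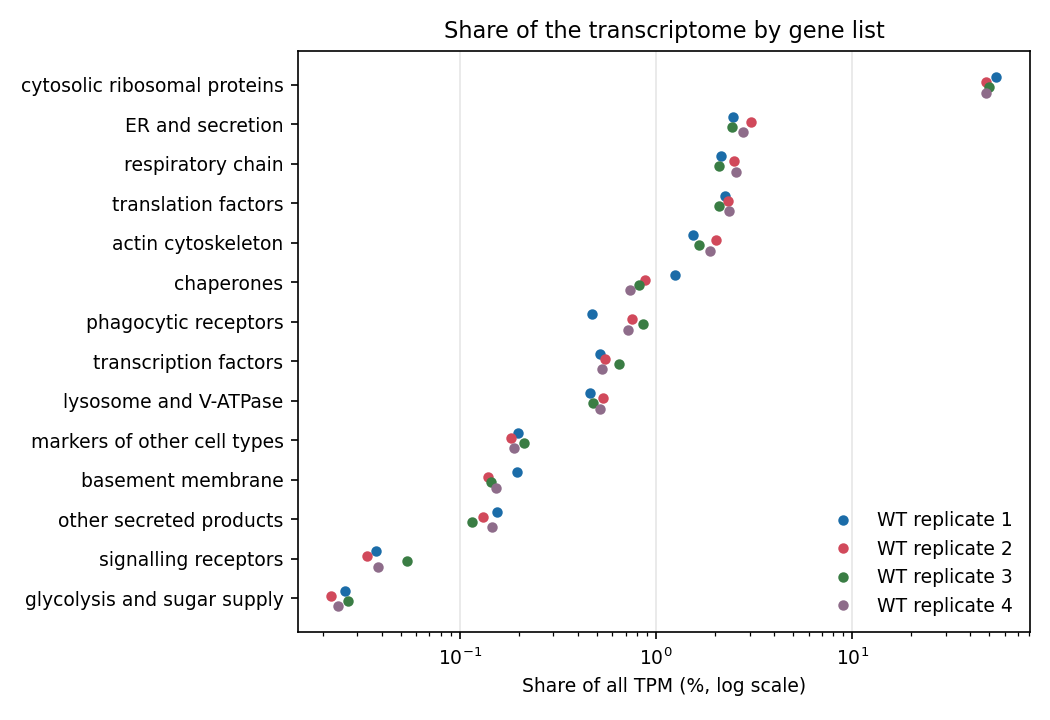
Share of all TPM (%, log scale, x) held by each of 14 gene lists (y) in the 4 WT libraries. Cytosolic ribosomal proteins hold 48.3 to 54.4% of the total in the 4 libraries, and glycolysis with sugar supply holds the least of the lists shown, 0.0248% on average.

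Outside the ribosome, the top genes mixed housekeeping and macrophage products. Failed axon connections, fax, best known from axon guidance in the fly embryo (chromosome 3L, 16402796 to 16411828, minus strand), had 7640, 8683, 10070 and 7336 TPM and rank 16. The SUMO modifier smt3 averaged 5139 ± 1048 TPM, the actin gene Act5C 4817 ± 994 TPM and the calcium-binding ER chaperone Calr 4584 ± 809 TPM. The tubulins alphaTub84B (4078 ± 173 TPM) and betaTub56D (2451 ± 156.5 TPM) varied less between the libraries than Act5C did (SD, n = 4 for each).

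The engulfment and scavenger receptors were ordered steeply. Of 25 listed genes, 15 (60%) averaged at least 1 TPM, against 46.3% of all genes. Together the listed genes held 0.703 ± 0.166% of all TPM, most of it NimC4. NimC4 exceeded crq 12.7-fold, with ratios of 10.3 to 14.7 in single libraries. It exceeded drpr, the engulfment receptor Draper, 171-fold, with ratios of 94.2 to 307. The levels of crq and Sr-CI did not differ beyond their spread, at 465 ± 114 and 394 ± 20.7 TPM.

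Next came the secreted Nimrod NimB3, with 220, 73.5, 108 and 63.5 TPM, highest in replicate 1. Draper had 38.2, 44.6, 24.4 and 31.1 TPM. The Nimrod NimC3 averaged 26.0 TPM, but 95.5% of its exon bases lie under another gene, so its value is uncertain. The integrin alpha chain scab, scb (23.4 TPM), and the CD36-family member peste, pes (16.5 TPM), were lower. Sr-CII averaged 8.13 TPM, and Sr-CIII, NimC2 and PGRP-LC, the receptor for bacterial peptidoglycan, averaged less than 1 TPM.

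**Figure D4:**
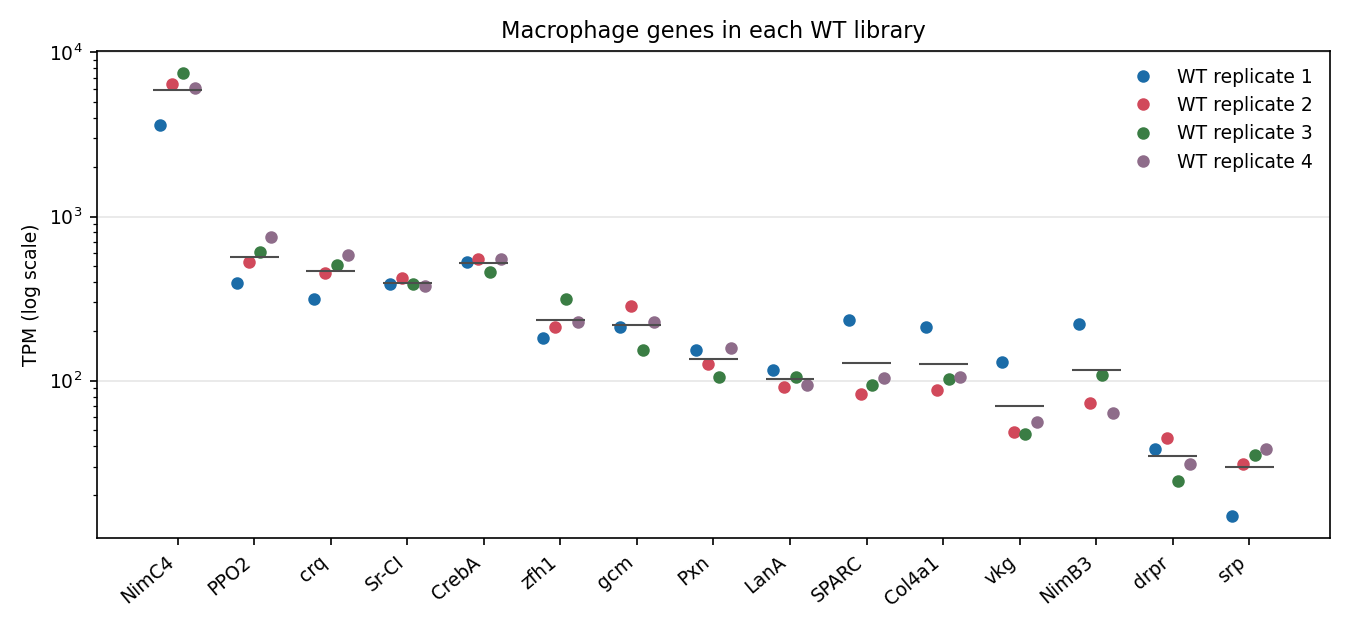
TPM (log scale, y) of 15 macrophage genes (x) in the 4 WT libraries, with the mean as a line. Replicate 1 is the lowest for NimC4, PPO2, crq and srp and the highest for SPARC, Col4a1, vkg and NimB3.

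Transcription factors were detected more often than genes at large. Of 210 listed genes, 168 averaged at least 1 TPM, 90 at least 10 TPM and 17 at least 100 TPM. The 168 are 80% of the list, against 46.3% of all genes, noncoding ones included. The listed factors held 0.561 ± 0.0577% of all TPM, and the median member stood at 6.69 TPM. As a share of reads they held 1.91%. CrebA, which drives genes of the secretory pathway, led the list with 527, 555, 461 and 548 TPM. It was above the second factor in all 4 libraries, by 2.23-fold on average, and 17.4-fold above srp.

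The zinc finger and homeodomain factor zfh1 had 183, 214, 313 and 226 TPM, and glial cells missing, gcm, which directs plasmatocyte and glial fate, had 213, 283, 155 and 229 TPM. The level of zfh1 was above gcm only in replicate 3, so their order is not resolved. The sister gene gcm2 averaged 31.5 ± 1.91 TPM, 6.98-fold below gcm and about level with srp. The srp cofactor u-shaped, ush, had 79.3, 97.7, 54.7 and 73.2 TPM. It was thus above srp in each library.

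Behind them came the bHLH factors crp (191 ± 31.1 TPM) and da (177 ± 16.9 TPM), the Myc-network partners bigmax (174 ± 9.06 TPM) and Mnt (140.2 ± 24.3 TPM), and the cell cycle factor E2f1 (147 ± 35.3 TPM). Below these stood luna, emc, maf-S, Xbp1, the unfolded protein response factor, and aop, an ETS repressor, between 124 and 137 TPM. Below CrebA, no neighbours in the order of the top 15 differed beyond their combined SD. The Notch targets E(spl)m7-HLH and E(spl)m8-HLH closed the 15 at 109 and 103 TPM. Of the 90 factors at 10 TPM or more, 50 (55.6%) had their highest value in replicate 3, the library that was high for long genes. The share was 31.4% for all genes at that level and 68.1% for the bin of the longest genes. Without replicate 3 the list held 0.533% of all TPM.

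All 16 basement membrane genes averaged at least 1 TPM, against 46.3% of all genes, and 9 of the 16 averaged at least 100 TPM. Together they had 1965, 1396, 1443 and 1527 TPM, which is 0.158 ± 0.0260% of all TPM. As a share of reads, with no correction for length, the list held 0.692%. Papilin, Ppn, a secreted matrix proteoglycan, was the highest at 347, 300, 296 and 350 TPM. The collagen-modifying enzymes PH4alphaEFB (a prolyl hydroxylase) and Plod (a lysyl hydroxylase) followed at 197 ± 22.0 and 181 ± 46.6 TPM.

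Of the laminin chains, LanB1 averaged 132 ± 32.1 TPM, LanB2 119 ± 11.2 TPM and LanA 102 ± 11.6 TPM. LanB2 was above LanA in all 4 libraries and beyond their combined SD. The laminin chain wb was lower, at 10.8 TPM. Collagen IV chain Col4a1 had 211, 87.4, 102 and 105 TPM, and was above its partner vkg in each library by 1.63- to 2.16-fold. SPARC, a collagen-binding protein, had 235, 82.9, 94.0 and 104 TPM. Perlecan, trol, averaged 4.04 TPM and Nidogen, Ndg, averaged 2.90 TPM.

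The matrix list split by library. In replicate 1, vkg, Col4a1, SPARC, Glt, Tig, trol, Ndg and Mp were 2.07- to 2.68-fold above the median of the other 3 libraries. Ppn, LanA, LanB1, LanB2 and Pxn were 1.03- to 1.24-fold above it, as was wb at 1.15-fold. Plod was 1.47-fold above it and PH4alphaEFB was below it at 0.832-fold. Of the 13 matrix genes at 10 TPM or more, 8 had their highest value in replicate 1, against 11.7% of all genes at that level. In the same library NimC4 stood at 0.559-fold, crq at 0.615-fold and srp at 0.423-fold of the median of the others. In all, 27 genes were over 2-fold above the next library in replicate 1. Chosen after their values were seen, these included vkg, Col4a1, SPARC, NimB3, fat-spondin (a secreted matrix protein), Npc2a (a sterol-binding protein) and CG31777.

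Among other secreted products, 27 of 46 listed genes (58.7%) averaged at least 1 TPM, against 46.3% of all genes, noncoding ones included. The list held 0.137 ± 0.0175% of all TPM. The neuropeptide-like precursor Nplp2 led with 752, 690, 498 and 760 TPM. The chitinase-like growth factors Idgf6 (171 ± 17.2 TPM), Idgf4 (54.5 ± 22.4 TPM) and Idgf2 (46.0 ± 21.0 TPM) were each present, while Idgf1, Idgf3 and Idgf5 averaged 1.55, 1.64 and 0.172 TPM. Without replicate 1, Idgf1 averaged 0.978 TPM, and Idgf5 was listed at 0 in the other 3 libraries. The secreted insulin-binding protein ImpL2 averaged 106 TPM, with 62% of its exon bases shared with another gene, and the extracellular adenosine deaminase Adgf-A averaged 91.1 TPM. The complement-like proteins Tep4 (36.5 TPM) and Tep2 (12.2 TPM) were detected, and Tep3 was listed at 0.

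An insulin-like peptide outside the list, Ilp4, had 1645, 1947, 1249 and 1741 TPM and was chosen after its values were seen. At rank 111 it was above each listed secreted product. Of the Pvr ligands, Pvf3 averaged 17.2 TPM, Pvf2 5.12 TPM and Pvf1 0.987 TPM, while the matrix proteases Mmp2 and Mmp1 averaged 9.98 and 0.992 TPM.

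Signalling receptors were low as a class. Of 37 listed, 28 (75.7%) averaged at least 1 TPM, against 46.3% of all genes. None reached 100 TPM, and the summed share of the list was 0.0408 ± 0.00904%. The Wnt-binding receptor derailed, drl, had 61.1, 49.1, 57.4 and 47.7 TPM. The PDGF and VEGF receptor homologue Pvr, which supports macrophage survival and migration in the fly embryo, had 38.8, 46.0, 51.4 and 69.6 TPM. The insulin receptor InR had 46.6, 32.9, 67.7 and 35.6 TPM, and Notch, N, had 29.9, 23.2, 55.1 and 26.7 TPM. The first 3 of these did not differ beyond their spread.

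The Hedgehog receptor ptc (23.2 TPM) and the JAK/STAT receptor dome (22.7 TPM) came next. The FGF receptor htl averaged 11.2 TPM, Egfr 3.23 TPM and Toll, Tl, 2.17 TPM. As a ratio of the highest library to the next, Toll-6 stood out, with 7.62, 6.82, 29.1 and 9.06 TPM, and it averaged 7.83 TPM without replicate 3. Of the 14 receptors at 10 TPM or more, 9 had their highest value in replicate 3, against 31.4% of all genes at that level and 68.1% of the bin of the longest genes.

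Adhesion genes were led by beta-catenin, arm (318 ± 59.99 TPM), and alpha-Cat (90.3 ± 35.1 TPM). Of 27 listed, 24 (88.9%) averaged at least 1 TPM, against 46.3% of all genes. The integrin beta chain mys had 43.5, 45.1, 66.6 and 62.7 TPM. Among alpha chains, scb averaged 23.4 TPM, if 17.4 TPM and mew 12.3 TPM, and the beta chain Itgbn was at 0.735 TPM. E-cadherin, shg, averaged 45.9 ± 17.5 TPM.

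The actin cytoskeleton, the machinery of migration and engulfment, held 1.78 ± 0.214% of all TPM. At 1 TPM or more were 52 of 57 genes (91.2%), against 46.3% of all genes, and 24 were at 100 TPM or more. Act5C exceeded the second cytoplasmic actin Act42A 4.52-fold. The actin-binding proteins chic (profilin, 2262 ± 293 TPM), tsr (cofilin, 1666 ± 351 TPM), sn (fascin, 1118 ± 129 TPM) and cib (747 ± 119 TPM) followed. The small GTPases Rac2 (577 ± 114 TPM) and Rac1 (456 ± 72.1 TPM) were kept in that order in all 4 libraries. None of the 43 members at 10 TPM or more had its highest value in replicate 1, where 11.7% of all genes did.

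The ER and secretory machinery came next to the ribosome among the lists of functions compared, at 2.68 ± 0.291% of all TPM. All 44 members averaged at least 1 TPM, against 46.3% of all genes. After Calr came the translocon genes Tapdelta (2119 ± 126 TPM) and Sec61beta (2071 ± 277 TPM), the ER chaperone Hsc70-3, the fly BiP (1670 ± 482 TPM), and the disulphide isomerase Pdi (1304 ± 264 TPM). Translation factors held 2.25 ± 0.119%, led by eEF5 (3564 ± 394 TPM), eEF1alpha1 (3299 ± 709 TPM) and eEF1beta (2335 ± 64.9 TPM). The second copy, eEF1alpha2, was at 2.69 TPM, which is 1227-fold below eEF1alpha1.

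Lysosomal and V-ATPase genes held 0.498 ± 0.0349%, with 32 of 34 (94.1%) at 1 TPM or more, against 46.3% of all genes. The saposin precursor Sap-r averaged 771 ± 69.4 TPM, cathepsin B, CtsB1, 645 ± 96.6 TPM, and Lamp1 435 ± 53.1 TPM. The cathepsin L gene Cp1 had 273, 501, 629 and 215 TPM, a wider spread than its neighbours. Of the Rab GTPases, the early and late endosome members Rab5 (418 ± 68.6 TPM) and Rab7 (307 ± 81.3 TPM) were the highest of 33. The nuclease DNaseII, which degrades engulfed DNA, averaged 174 ± 51.1 TPM.

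Nuclear genes of the respiratory chain were high and those of glycolysis and sugar supply low. The 80 respiratory chain genes held 2.33 ± 0.234% of all TPM. Of these, 66 (82.5%) were at 1 TPM or more, against 46.3% of all genes, and 48 were at 100 TPM or more. Cytochrome c oxidase subunit cype led at 2143 ± 237 TPM, with COX6B at 976 ± 116 TPM, and the complex I subunit ND-MLRQ stood at 1283 ± 350 TPM. Members listed at 0 numbered 9 (11.25%), against 31.3% of all genes. Of these 9, 8 have names that mark them as like another subunit and the ninth is ND-MNLL.

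The 17 genes of glycolysis and sugar supply summed to 261, 222, 269 and 241 TPM, which is 0.0248 ± 0.00210% of all TPM, and the respiratory chain list exceeded them 78.2- to 113-fold in single libraries. The list also holds fbp, an enzyme of gluconeogenesis (45.0 ± 5.91 TPM), trehalase, the transporter gene Glut1 and Pepck. Without these 4, a choice made after the values were seen, the 13 remaining enzyme genes summed to 210.0, 183, 226 and 190.5 TPM, and the ratio was 93.1 to 137. The lists differ in size, and their medians were 153 and 4.34 TPM. Aldolase, Ald, had 102, 79.9, 116 and 80.9 TPM. Glyceraldehyde-phosphate dehydrogenases Gapdh2 (5.51 ± 2.18 TPM) and Gapdh1 (2.41 ± 1.08 TPM), Pgk (4.09 ± 1.68 TPM), pyruvate kinase PyK (4.76 ± 2.05 TPM) and ImpL3, the lactate dehydrogenase (4.34 ± 1.10 TPM), were all low. Phosphofructokinase, Pfk, averaged 0.916 TPM. The 26 genes of the tricarboxylic acid cycle summed to 1154, 1328, 1303 and 1422 TPM, with citrate synthase, kdn, at 197 ± 74.2 TPM.

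CG9005, the gene mutated in the other libraries of the series, had 72.9, 79.3, 114 and 84.5 TPM in WT, rank 1003.

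The chaperone sum was high in replicate 1, at 1.53-fold of the median sum of the other 3 libraries. The sums were 12527, 8822, 8208 and 7354 TPM. Of the 23 members at 10 TPM or more, 11 (47.8%) had their highest value in replicate 1, against 11.7% of all genes at that level. The median deviation of the 23 from the gene mean was 0.137 there, on the log2(TPM + 1) scale. The highest members, Hsp23 and Hsp26, stood at 2.22- and 1.64-fold of the median of the others. The small heat shock protein Hsp23 had 4381, 2267, 1971 and 1736 TPM and Hsp26 had 2843, 1737, 1869 and 1204 TPM. Hsp27 had 414, 340, 688 and 155.5 TPM, with replicate 3 the highest. The constitutive Hsp83 was even, at 1081 ± 82.8 TPM. Without replicate 1, Hsp23 averaged 1991 TPM.

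Cell cycle genes were present in these cells. The phosphatase string, stg, which releases the G2 arrest, had 638, 698, 588 and 496 TPM. Below it, geminin averaged 176 ± 40.6 TPM, CycA 137 ± 43.1 TPM and Cdk1 62.1 ± 19.5 TPM. Of 47 listed genes 45 (95.7%) averaged at least 1 TPM, against 46.3% of all genes. Replication-dependent histone genes were almost empty, with 105 of 111 (94.6%) listed at 0, against 31.3% of all genes. They are near-identical copies, and their messages lack a polyA tail, so these values are uncertain. The replacement histones are single genes with a tail. His4r averaged 1789 ± 357 TPM, His2Av 1387 ± 437 TPM and His3.3B 1123 ± 218 TPM.

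Markers of crystal cells, the melanising blood cells, were mixed. Of 10 listed, 8 (80%) averaged at least 1 TPM, against 46.3% of all genes, and 6 averaged at least 10 TPM. The prophenoloxidase PPO2 had 391, 526, 604 and 752 TPM, and PPO1 had 50.8, 56.7, 72.5 and 67.3 TPM, both lowest in replicate 1. PPO2 exceeded PPO1 9.19-fold. The listed genes Men, FKBP59, peb and klu averaged 130, 25.9, 17.1 and 11.1 TPM. Lozenge, lz, the factor that specifies these cells, averaged 2.49 ± 0.308 TPM, and PPO3 averaged 0.486 TPM. Naam, another member of the list, was listed at 0.

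Immune genes were detected about as often as all genes, noncoding ones included. Their share at 1 TPM or more was below that of protein-coding genes alone (7378 of 13921), a difference that was not tested. Of 47 listed, 22 (46.8%) averaged at least 1 TPM and 12 (25.5%) were listed at 0, against 46.3% and 31.3% of all genes. Those at 0 included DptA, AttC, AttD, CecA1, CecA2, CecB and CecC, all antimicrobial peptides. The signalling adaptor imd averaged 51.5 ± 13.6 TPM, the inhibitor cact 29.7 ± 3.36 TPM and the NF-kappaB factor Rel 10.1 ± 2.27 TPM. Other immune-induced peptides were above 0. TotF had 27.9, 11.5, 11.7 and 26.1 TPM, and IM14 had 7.71, 7.58, 26.0 and 21.3 TPM. IM4 averaged 6.35 TPM, and 2.22 TPM without replicate 1.

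The macrophage markers summed to 6027, 8617, 9662 and 8317 TPM, against 1989, 1827, 2133 and 1898 TPM for 187 markers of other cell types. Of those 187, 81 (43.3%) averaged at least 1 TPM, against 46.3% of all genes, 29 averaged at least 10 TPM and 28 were listed at 0. CrebA, listed for the salivary gland, and SoxN, listed for neural progenitors, were the only 2 at 100 TPM or more. SoxN, a Sox factor of the early nervous system, had 493, 370, 421 and 336 TPM. The other neural progenitor markers were far lower, led by brat (32.6 TPM) and D (25.4 TPM), with dpn at 3.65 TPM and ase at 1.52 TPM. After CrebA, the highest salivary gland marker was sage, at 8.92 TPM. Without NimC4 on one side and CrebA and SoxN on the other, the ratio of the sums was 2.22 ± 0.341 (SD, n = 4).

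By tissue, the muscle list was led by Act87E (29.4 TPM), with Mef2 at 13.9 TPM, and summed to 79.9 to 135 TPM. The pan-neuronal elav averaged 51.4 ± 12.2 TPM while the synaptic gene nSyb was at 0.836 TPM, or 0.428 TPM without replicate 3. The glial genes moody and loco averaged 87.1 ± 24.1 and 31.7 ± 7.33 TPM. Lower in that list were nrv2 (17.5 TPM), wrapper (7.62 TPM) and the glial gene repo (0.660 TPM). Of the 20 neuron and glia markers, 8 (40%) averaged at least 1 TPM, against 46.3% of all genes. The germline list summed to 36.1 to 57.1 TPM, the late cuticle list to 6.16 to 10.7 TPM and the gut list to 15.8 to 28.9 TPM. The heart and lymph gland list summed to 125 to 197 TPM, led by Ance (79.8 TPM) and ham (31.3 TPM). The trachea list summed to 46.2 to 102 TPM, led by trn (30.9 TPM). The visceral mesoderm list summed to 54.5 to 87.9 TPM, and the yolk list to 33.0 to 62.3 TPM, led by Vm26Aa (37.5 TPM). In the fat body list ppl, a glycine-cleavage enzyme, made up 96.8 TPM of 114 TPM, and the storage proteins Lsp2 and Fbp1 were listed at 0. The epidermis list was led by shg (45.9 TPM) and the adhesion protein Fas3 (33.8 TPM). Its factor grh averaged 12.3 TPM, and the cuticle enzyme Ddc 0.309 TPM, or 0.123 TPM without replicate 2. Of the 29 such markers at 10 TPM or more, 20 (69.0%) had their highest value in replicate 3. The share was 31.4% for all genes at that level and 68.1% for the bin of the longest genes. How much of any group above came from other cells was not tested.

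Noncoding genes held 5.08 ± 0.724% of all TPM, and 1.81 ± 0.458% without MRE16. MRE16, an annotated noncoding RNA (chromosome X, 3545750 to 3546110, minus strand), had 30340, 28364, 34285 and 37608 TPM and was second among all genes. The 18S rRNA pseudogene 18SrRNA-Psi:CR41602 had 5875, 6501, 12466 and 5541 TPM, and 28SrRNA-Psi:CR45859 had 331, 380, 711 and 326 TPM. Both were highest in replicate 3 and are near-copies of rRNA, so reads may be shared. Uhg7 averaged 1107 ± 68.1 TPM, but its exon bases lie fully under another gene. The X-linked roX1, a noncoding RNA of dosage compensation on the male X, had 123, 111, 199 and 113 TPM, and no gene of 113 on the Y chromosome averaged 1 TPM.

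Pairs of libraries correlated at a Pearson r of 0.905 to 0.931 across 8096 genes on the log2(TPM + 1) scale, lowest between replicates 3 and 4. Genes are not independent replicates, and the points share their libraries and lengths. Between 15.9% and 23.4% of these genes lay over 2-fold apart in a pair. The spread shrank with level. The median CV was 52.3% for genes between 1 and 10 TPM, 25.3% between 10 and 100 TPM, 17.8% between 100 and 1000 TPM and 11.5% at 1000 TPM or more. Counting error alone would give 10.9, 3.78, 1.59 and 0.453% for the median gene of these classes. Reads without molecular identifiers are not independent molecules, so the counting values cover counting error only.

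**Figure D5:**
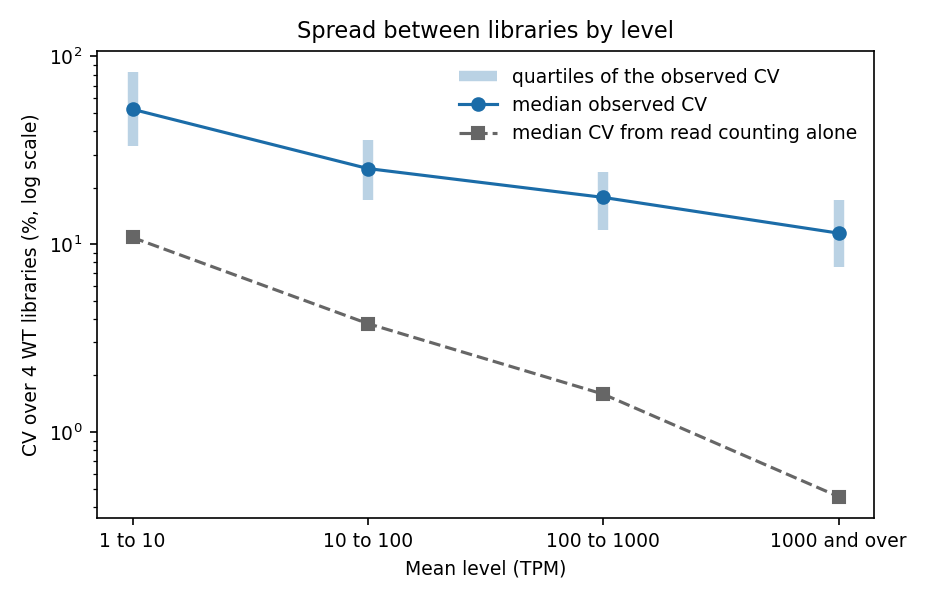
Median CV over the 4 WT libraries (%, log scale, y) by class of mean level (TPM, x), with quartiles as bars, and the median CV expected from read counts alone. The observed CV falls to 11.5% in the top class, above the 0.453% of counting error.

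Among the steadiest genes at 10 TPM or more were casp (55.8 ± 1.09 TPM), CG5039 (36.4 ± 0.719 TPM) and mib2 (16.4 ± 0.387 TPM). Of the 12 genes with the largest CV at that level, 6 were tRNA or snoRNA genes, with 7 to 26 reads on average. Among protein-coding genes, CG14406 had 98.2 TPM in replicate 4, 0.412 TPM in replicate 1 and was listed at 0 in replicates 2 and 3. CG7768 had 61.8 TPM in replicate 4 and 1.67 TPM in replicate 3, and was listed at 0 in the other 2. CG9512 reached 36.2 TPM in replicate 2, against 0.747 to 2.85 TPM elsewhere. CG13159 reached 251 TPM in replicate 1, against 18.7 to 37.8 TPM elsewhere. Without the library where each was high, these 4 averaged 0.137, 0.557, 1.57 and 28.3 TPM in the order given.

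Genes that stood over 2-fold above the next library numbered 27 in replicate 1, 9 in replicate 2, 88 in replicate 3 and 32 in replicate 4, of 4397 at 10 TPM or more. Those of replicate 3 were long. Its 79 protein-coding genes had a median exon length of 5871 bases, against 1904.5 bases for all protein-coding genes at that level. The 19 of replicate 1 had a median of 893 bases, although they include vkg and Col4a1, whose exons span 6503 and 6165 bases.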

How the data were processed

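Stage 11 embryos grown at 29 °C were dechorionated and dissociated, mCherry-positive cells were sorted, and RNA was sequenced with reads of 50 bases, per the labels' protocols. The authors deposited 1 table per library with TPM per gene, and these TPM values are the unit used here. The submitters' processing notes name STAR 2.5.1b, HTSeq 0.5.4p3, edgeR, limma, R 3.4.4 and the build BDGP6. What each of these did, whether counting used strand, and how reads shared by genes were treated is not given in the sources used here.

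Groups came from the sample titles, and only the 4 WT libraries were used. The number of value columns without a sample was 0. Exon lengths (Ensembl release 115, BDGP6) were found for 17358 of 17494 genes. TPM multiplied by exon length gave whole reads, within 0.05 reads, for 98.9 to 99.0% of the genes above 0 with an exon length. Their sum is the number of reads assigned to such genes and leaves out all other reads. Lists were described by counts, sums and medians, with mean ± SD over 4 libraries and no test. Exon overlap, ranks, ratios and the CV were computed with Python 3.11.15, pandas 2.3.3 and numpy 2.4.6, and drawn with matplotlib 3.10.9. The read recovery was checked on simulated data.

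Named genes were the 30 with the highest mean, the 6 markers, up to 10 top members and those with a defining role in each list, the 15 top transcription factors, the 10 top noncoding genes, the 12 largest and 8 smallest CVs at 10 TPM or more, up to 5 genes per library with the largest ratio to the others, and rank neighbours of the markers. Members and lists were chosen with earlier results of these data known. Alternatives were leaving out a library, medians, rescaling to protein-coding genes, shares of reads, pseudocounts and level minimums.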

Additional observations from a re-analysis of the deposited data

Results flagged for a closer look

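For 24 of 212 named genes and 2 of 42 list sums, 1 library lay far from the other 3, with the gap to its nearest neighbour taking up most of the range. Chance flags about 1 in 20 groups of 4. The 2 of 42 list sums are near that rate. The share among the named genes cannot be read against that rate, since the genes include those with the largest CV and the largest single-library ratios. A gene above 0 in only 1 library is always flagged, whatever its level. He, Idgf5, NimC1 and Sr-CIII are such genes, so their flags carry no information.

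Replicate 1 was the high one for collagen IV chains Col4a1 (211 TPM) and vkg (129 TPM), SPARC (235 TPM) and Ndg (5.10 TPM), and for CG31777 (432 TPM), CG13159 (251 TPM), Idgf5 (0.690 TPM) and NimC1 (0.0209 TPM). It was the low one for Mnt (104 TPM).

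Replicate 2 was the high one for Rac1 (562 TPM), CG9512 (36.2 TPM) and Sr-CIII (0.126 TPM). Replicate 4 was the high one for CG14406 (98.2 TPM), CG7768 (61.8 TPM) and He (6.11 TPM).

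Replicate 3 was the high one for the summed visceral mesoderm markers (87.9 TPM) and the summed sex and dosage compensation genes (444 TPM), and for roX1 (199 TPM), a member of the second list. It was also the high one for 18SrRNA-Psi:CR41602 (12466 TPM), 28SrRNA-Psi:CR45859 (711 TPM), aop (199 TPM), cact (34.7 TPM), dome (33.4 TPM), Pvf3 (30.7 TPM) and Toll-6 (29.1 TPM), and the low one for eEF5 (2980.4 TPM).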

How the results depend on the processing

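No paired analysis was possible because a single group was described and no comparison was made. With TPM rescaled to protein-coding genes, the top 10 genes held 17.8%, translation factors 2.37%, and the median of genes at 1 TPM or more was 14.4 TPM. As a share of reads, which is not corrected for length, the top 10 held 10.9%, the top 100 held 43.1%, noncoding genes 2.69%, ribosomal proteins 29.5%, the respiratory chain 1.42%, translation factors 3.18%, actin genes 3.05%, basement membrane 0.692%, transcription factors 1.91% and markers of other cell types 0.643%. The median SD on the log2(TPM + 1) scale was 0.42, and 0.35 to 0.43 when 1 library was left out. It was 0.47 with a pseudocount of 0.1, 0.26 with no filter on level and 0.33 at 10 TPM or more. The lowest Pearson r of 0.905 was 0.905 to 0.924 when 1 library was left out, 0.822 and 0.882 with pseudocounts of 0.1 and 0.5, and 0.952 with no filter. The other summaries moved by less than 1 SD or, for the count of genes at 1 TPM, by less than 1.5 times (5691 genes at 5 TPM to 9132 at 0.5 TPM). Of the 212 named genes, 3 to 6 had a mean lower by more than 1.5 times when a given library was left out, and 14 had a median over the libraries lower than the mean by that much. Those not covered in the report were CG31777 (135 TPM without replicate 1), and, without replicate 3, Hml (0.00780 TPM), NimC2 (0.0407 TPM) and PGRP-LC (0.516 TPM), while NimC1 and Sr-CIII were above 0 in 1 library only. The glycolysis and sugar supply list summed to 248 TPM on average, and to 202 TPM without fbp, Treh, Glut1 and Pepck, an alternative chosen after seeing the data. The share of noncoding genes has no value after rescaling to protein-coding genes. Depth gave the median gene between 1 and 10 TPM 84.8 reads and a counting CV of 10.9%, against an observed CV of 52.3%.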
